A study of Mus musculus with 28 samples.

Results

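The genes described here are the 4 Id genes (Id1, Id2, Id3 and Id4) and 5 genes of bone morphogenetic protein (BMP) signalling, namely the receptors Bmpr1a, Bmpr1b and Bmpr2, the transducer Smad4 and the ligand Gdf10. They were taken by symbol from the deposited tables, where they make up 9 of 17690 gene rows. The series profiles the subependymal zone (SEZ) of grown mice, where neurons for the olfactory bulb are born beside the ventricles, by SORT-seq, which sorts 1 cell per well and counts its polyadenylated RNA with cell and molecule barcodes. It holds 28 libraries, 4 for each of 7 sorts. Prom1/CD24 cells were sorted from Bl/6 mice with antibodies to Prom1, a marker of cells that touch the ventricle, and to CD24, which is high in neuroblasts. GLAST/EGF cells were sorted from Bl/6 mice on antibody to GLAST, the glutamate transporter of astroglia, and/or on binding of labelled EGF. The mixed day-60 sort held tdTomato cells of the SEZ or the olfactory bulb of Ki67-iresCreER Rosa-tdTomato mice. The tdTomato cells were taken 60 days after 5 mg of tamoxifen, and cells carrying the oligodendrocyte antigen O4 were added. Day-60 tdTomato and day-2 tdTomato cells came from the SEZ of Ki67-iresCreER +/ki Rosa-tdTomato +/ki mice, 60 and 2 days after 5 mg of tamoxifen. Ki67-RFP cells came from Ki67-tagRFP ki/ki mice, whose red reporter marks dividing cells, and Troy-GFP cells from Troy-GFPiresCreER +/ki mice, whose reporter in Tnfrsf19 was used to find neural stem cells (NSCs). All mice were of the Bl/6 strain. Day-60 mice were 16 to 19 weeks old, mice of the mixed sort 8 to 19 weeks, and all others 8 to 10 weeks. The tdTomato label passes to all progeny of any cell that expressed Mki67 when tamoxifen was given, whatever its type. How many mice stand behind each library is not stated. With 96 wells per library, 4 libraries would fill a plate of 384, so p-values measure the spread between libraries, which may be technical only.

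BMPs are secreted ligands that bring together type I receptors (Bmpr1a and Bmpr1b encode such receptors) and type II receptors (Bmpr2), which are kinases at the cell surface. The type I receptor phosphorylates receptor SMADs, which join SMAD4, the shared partner of the BMP and TGF-beta branches, and enter the nucleus. The Id genes are classical targets of this pathway: their proteins have a helix-loop-helix but no basic DNA-binding region, and they hold E proteins and so keep their partners from DNA. Gdf10, also called Bmp3b, encodes a secreted ligand of the TGF-beta superfamily. In the adult SEZ, BMP signalling and Id proteins are known for their part in the balance between quiescent and dividing stem cells.

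The annotation (GENCODE M21, GRCm38, the build that the submitters' processing notes call mm10) gives the positions of the genes. Id1 lies at chr2:152736251-152737410, Id2 at chr12:25093799-25097140, Id3 at chr4:136143497-136145755 and Id4 at chr13:48261228-48266026. Bmpr1a lies at chr14:34410734-34503341, Bmpr1b at chr3:141837136-142169425, Bmpr2 at chr1:59763400-59879014 and Gdf10 at chr14:33923587-33937983. Id4, Bmpr1a and Smad4 overlap genes on the opposite strand (A330033J07Rik and Gm49291, Gm17110, and AC132418.2), and Bmpr2 overlaps Gm38125 on its own strand. The sources used here do not say whether counting used the strand, so reads of such pairs may not have been told apart.

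Since the Id genes are targets of SMADs, the stretches of the Id2 and Id4 promoters that hold GGCGCC, the letters known from BMP response elements, are shown, read 5′ to 3′ on the gene's strand, in lower case with matches in capitals. The sequences are RefSeq promoters on GRCm38.p6, whose windows run from 250 bases before a transcript start to 50 after it. In the Id2 stretch the capitals mark GGCGCC and CAGCTG, where CAGCTG is a form of the E-box CANNTG to which proneural factors bind. In the Id4 stretch they mark GGCGCC and GGGCGG, a GC box, found on either strand, and none of these matches overlap. The Id2 stretch lies at chr12:25096254-25096342 on the minus strand, inside the Id2 gene of GENCODE but in none of its exons, and the Id4 stretch at chr13:48260915-48261034 on the plus strand, before the annotated gene and inside the genes A330033J07Rik and Gm49291 of the other strand.
Id2: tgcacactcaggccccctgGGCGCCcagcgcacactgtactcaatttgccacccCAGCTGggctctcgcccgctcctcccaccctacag
Id4: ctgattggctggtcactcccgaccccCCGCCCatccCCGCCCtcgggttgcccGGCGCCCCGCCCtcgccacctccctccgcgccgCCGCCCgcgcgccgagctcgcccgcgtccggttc
The match to GGCGCC begins 231 bases before the start in Id2 and 148 bases before it in Id4. Windows of 7 of the genes were searched (Id2, Id3, Id4, Bmpr1a, Bmpr1b, Bmpr2 and Gdf10; 9 windows, since Bmpr1b has 3 starts). GGCGCC stood in 5 of these genes (Id2, Id4, Bmpr1a, Bmpr2 and Gdf10), against 11.9% of 32851 single windows of all genes. CAGCTG stood in 2 (Id2 and Bmpr1b, against 16.3%) and GGGCGG in 6 (all but Bmpr1b, against 35.7%). The counts are of genes with a match in any window and the percentages of single windows, so the units differ. Both strands were searched, and base composition was not matched: G and C made up 73.3% of the Id4 window and 63.3% of the Id2 window. A match describes letters and is not a measured binding site.

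Of 2688 wells, 1789 held at least 1000 estimated transcripts and were taken as cells, between 11 and 89 per library. Summed transcripts of these cells ranged from 43149 to 106429 per library in Prom1/CD24 and from 253051 to 572793 in the other sorts, so the Prom1/CD24 values are the least precise. The same 96 well barcodes serve every library by design. Y-linked transcripts (4 genes) lay at 285 to 431 CPM in GLAST/EGF and Troy-GFP libraries and at 0 in all others, so a contrast of either of these with any other sort is also a contrast of sex, and the 2 cannot be told apart. By the names of the tables, GLAST/EGF libraries 3 and 4 and Troy-GFP libraries 1 and 2 ran on flow cell AHY73KBGXX and the remaining libraries on HVJH2BGXX, with none named for day 2. A cluster of 35 cells, 24 of them in Troy-GFP and 11 in GLAST/EGF, was led by intestinal genes such as Reg1 and Lypd8. All 24 Troy-GFP cells came from library 2, where they made up 24 of 76 cells. Results that rest on this cluster are given without it too.

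Levels are transcripts per 1000000 (CPM), summed over the cells of a library and scaled over all 28 libraries. Since SORT-seq reads the 3′ end, a level is compared across samples and not between genes. Of the 9 genes, 7 had their highest mean level in day-60 tdTomato or Troy-GFP. The exceptions were Id1, highest in Prom1/CD24 with libraries that overlapped those of Troy-GFP, and Smad4, highest in Ki67-RFP. With cells thinned to 1000 transcripts the count was 6, and Bmpr1a was then highest in GLAST/EGF. How many of all genes were highest in these sorts was not counted, so the count describes the 9 genes only.

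**Figure D1:**
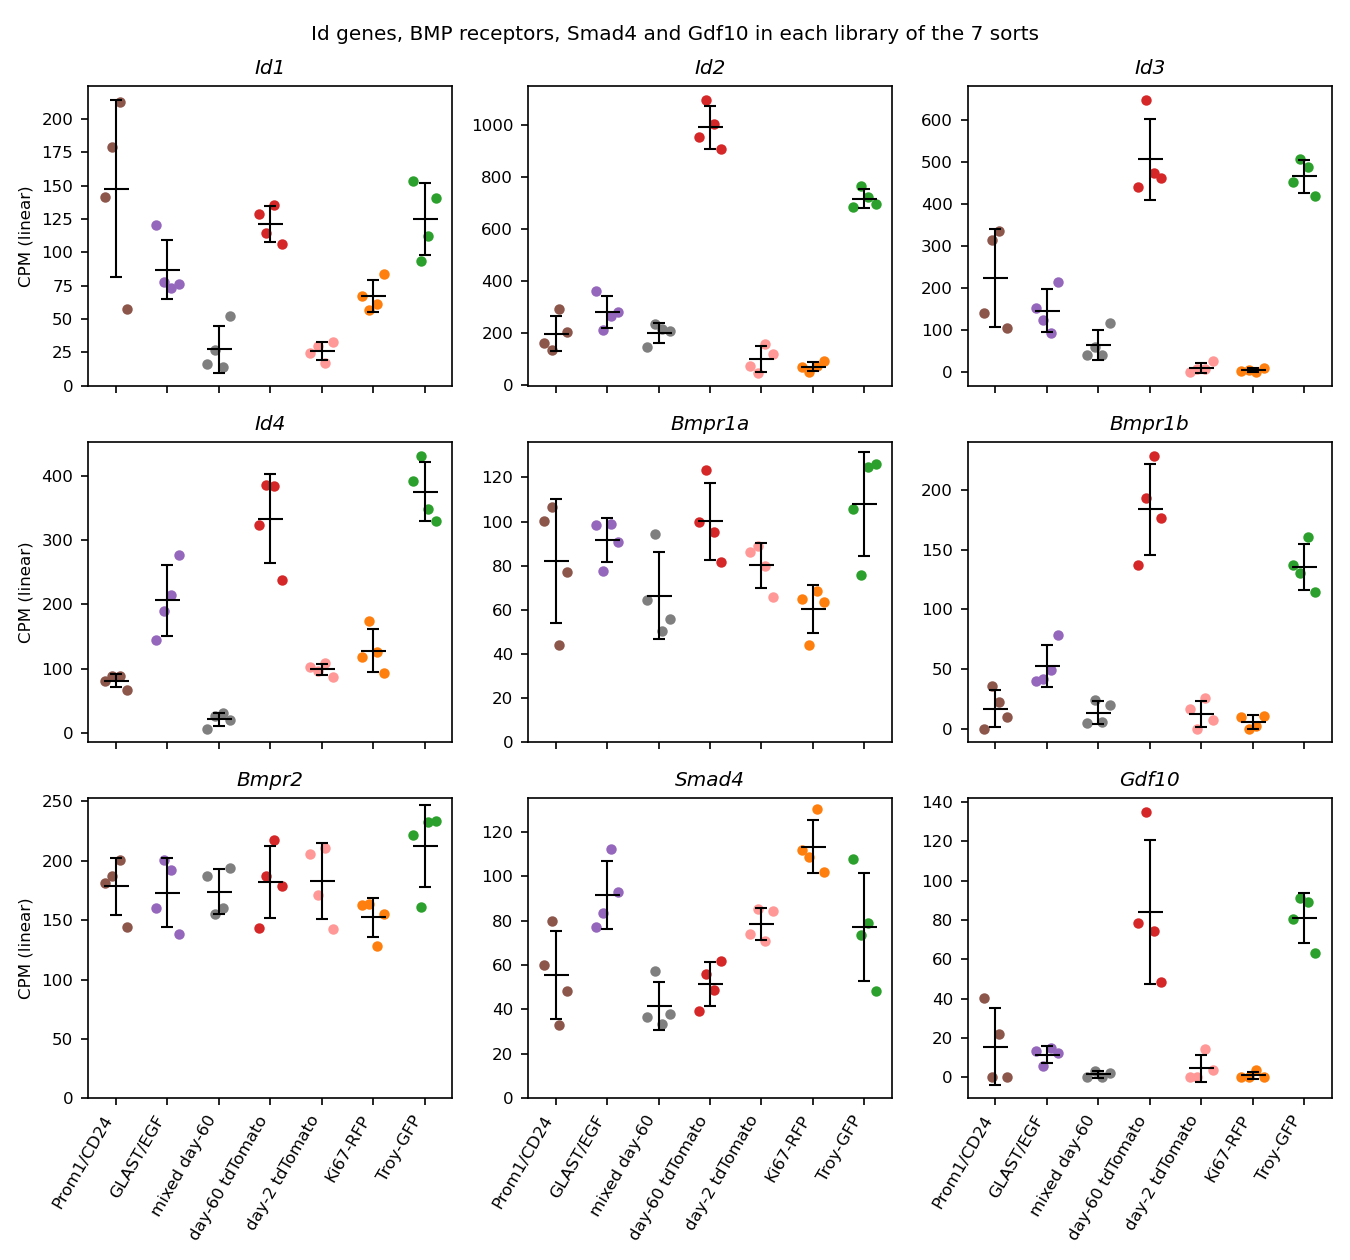
Level of each gene in CPM (linear axis) in the 4 libraries of each sort (points), with the mean and SD (bars). Id2, Id3, Bmpr1b and Gdf10 sit high in day-60 tdTomato and Troy-GFP and low in day-2 tdTomato and Ki67-RFP, while Bmpr2 lies between 128 and 233 CPM in every library.

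Id2 showed the clearest steps between sorts. It averaged 198 ± 68.3 CPM in Prom1/CD24, 280 ± 61.3 in GLAST/EGF, 201 ± 38.4 in mixed day-60, 989 ± 81.6 in day-60 tdTomato, 99.98 ± 48.5 in day-2 tdTomato, 70.9 ± 17.8 in Ki67-RFP and 716 ± 35.6 in Troy-GFP (SD, n = 4 libraries each, as for all levels by sort). Every day-60 library lay above every Troy-GFP library, and every Troy-GFP library above every GLAST/EGF library. The 4 neighbouring pairs from GLAST/EGF down to Ki67-RFP overlapped.

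Id3 averaged 224 ± 117 CPM in Prom1/CD24, 147 ± 52.1 in GLAST/EGF, 65.7 ± 36 in mixed day-60, 506 ± 95.7 in day-60 tdTomato, 10.4 ± 10.9 in day-2 tdTomato, 5.21 ± 4.28 in Ki67-RFP and 466 ± 39 in Troy-GFP. Its day-60 and Troy-GFP libraries overlapped, and both stood apart from all other sorts. Id4 averaged 81.3 ± 10.1 CPM in Prom1/CD24, 206 ± 55 in GLAST/EGF, 21.3 ± 10.5 in mixed day-60, 333 ± 69.2 in day-60 tdTomato, 98.9 ± 8.69 in day-2 tdTomato, 128 ± 33.6 in Ki67-RFP and 375 ± 45.5 in Troy-GFP. In the order of its means, the libraries of the last pair, Prom1/CD24 and mixed day-60, did not overlap, and those of every other neighbouring pair did.

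Id1 followed another order. It averaged 148 ± 66.6 CPM in Prom1/CD24, 87 ± 22.2 in GLAST/EGF, 27.3 ± 17.4 in mixed day-60, 121 ± 13.3 in day-60 tdTomato, 26.1 ± 6.92 in day-2 tdTomato, 67.2 ± 12 in Ki67-RFP and 125 ± 27.2 in Troy-GFP. The 5 highest sorts overlapped neighbour by neighbour, and mixed day-60 and day-2 tdTomato lay below all Ki67-RFP libraries.

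Among the receptors, Bmpr1b averaged 16.8 ± 15.4 CPM in Prom1/CD24, 52.3 ± 17.8 in GLAST/EGF, 13.5 ± 9.83 in mixed day-60, 184 ± 38 in day-60 tdTomato, 12.4 ± 11.1 in day-2 tdTomato, 5.74 ± 5.61 in Ki67-RFP and 135 ± 19.3 in Troy-GFP. Day-60 and Troy-GFP libraries overlapped for Bmpr1b, GLAST/EGF stood apart on both sides, and the remaining sorts overlapped. Bmpr1a means lay between 60.4 CPM (Ki67-RFP) and 108 CPM (Troy-GFP) and Bmpr2 means between 152 CPM (Ki67-RFP) and 212 CPM (Troy-GFP), and for both genes all neighbouring sorts overlapped. Smad4 means ran from 41.5 CPM in mixed day-60 to 113 CPM in Ki67-RFP, also with overlap between all neighbours.

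Gdf10 averaged 15.6 ± 19.4 CPM in Prom1/CD24, 11.6 ± 4.17 in GLAST/EGF, 1.4 ± 1.69 in mixed day-60, 84.1 ± 36.5 in day-60 tdTomato, 4.48 ± 6.74 in day-2 tdTomato, 0.928 ± 1.86 in Ki67-RFP and 81 ± 12.8 in Troy-GFP. Counts behind the low values were few: Gdf10 was read as about 4 transcripts in Prom1/CD24, 2 in mixed day-60, 6 in day-2 tdTomato and 2 in Ki67-RFP, over all 4 libraries. It was at 0 in 2, 2, 2 and 3 libraries of those sorts. In bulk sums such as these, fewer cells of a type and less RNA per cell cannot be told apart.

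The first comparison set dividing cells of the niche against the stem cell reporter. In Ki67-RFP cells 8 of the 9 genes were lower than in Troy-GFP cells and Smad4 was higher. In limma's voom fit over 8396 genes with Benjamini-Hochberg adjustment, 59.6% of genes passed an adjusted p of 0.05, 28.4% as higher and 31.2% as lower in Ki67-RFP. Id3, Bmpr1b and Gdf10 met the filter on low values in Troy-GFP libraries and in no Ki67-RFP library, so they had to differ, and their calls are a description. The cell makeup moved with the sorts: by the classes described further on, NSC-like cells made up 0.312% of Ki67-RFP and 65.8% of Troy-GFP cells, dividing cells 45.9% and 2.86%, and neuroblast-like cells 33.3% and 1.7% (mean over libraries, n = 4 each). The part of these shares in the fold changes was not tested.

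Id2 stood at 69.2, 48.3, 74.7 and 91.4 CPM in Ki67-RFP libraries, against 684, 764, 722 and 694 CPM in Troy-GFP libraries. All Ki67-RFP libraries were far below all Troy-GFP libraries, with a log2 fold change of -3.42 ± 0.16 (SE, n = 4 each; limma adjusted p = 6.81e-16). Id3 stood at 2.03, 6.03, 1.85 and 10.9 CPM in Ki67-RFP libraries, against 452, 507, 487 and 419 CPM in Troy-GFP libraries, a log2 fold change of -6.57 ± 0.50 (limma adjusted p = 1.75e-11). The Ki67-RFP values rest on about 11 transcripts in all, against 860 in Troy-GFP.

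Id4 stood at 118, 173, 127 and 92.9 CPM in Ki67-RFP libraries, against 391, 431, 348 and 329 CPM in Troy-GFP libraries. The groups did not overlap, and the log2 fold change was -1.67 ± 0.16 (limma adjusted p = 9.97e-10), smaller than for Id2 and Id3, though a difference between genes was not tested. Id1 stood at 67.1, 56.4, 61.3 and 83.9 CPM in Ki67-RFP libraries, against 153, 93.3, 112 and 141 CPM in Troy-GFP libraries, a log2 fold change of -0.95 ± 0.19 (limma adjusted p = 0.000143). The Id1 call was lost when endothelial-like cells, described further on, were left out (27 in Troy-GFP and 0 in Ki67-RFP). The log2 fold change was then -0.33 (limma adjusted p = 0.202). With every cell thinned to 1000 transcripts, so that all cells count alike, Id4 had a log2 fold change of -2.76 and Bmpr2 of -0.97 (limma adjusted p = 8.16e-08 and 0.00458).

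Bmpr1b stood at 10.2, 0, 1.85 and 10.9 CPM in Ki67-RFP libraries, against 137, 130, 161 and 114 CPM in Troy-GFP libraries, a log2 fold change of -5.03 ± 0.58 (limma adjusted p = 3.42e-08). The other receptors fell less: Bmpr1a had a log2 fold change of -0.88 ± 0.20 (limma adjusted p = 0.000605) and Bmpr2 of -0.54 ± 0.15 (limma adjusted p = 0.0033). Gdf10 was read as 2 transcripts in Ki67-RFP and 150 in Troy-GFP. The ratio of its levels, 85-fold lower in Ki67-RFP, had a 95% counting interval of 23.1 to 708.

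Smad4 stood at 112, 109, 130 and 102 CPM in Ki67-RFP libraries, against 108, 73.7, 78.9 and 48.5 CPM in Troy-GFP libraries. The highest Troy-GFP library lay within the Ki67-RFP range, and the log2 fold change was 0.49 ± 0.20 (limma adjusted p = 0.0347). This call was lost without Troy-GFP library 2 (adjusted p = 0.0726), Troy-GFP library 4 (adjusted p = 0.173), Ki67-RFP library 3 (adjusted p = 0.0709) or the cluster led by intestinal genes (adjusted p = 0.0503), all by limma. Within flow cell HVJH2BGXX, which holds the Ki67-RFP libraries and Troy-GFP libraries 3 and 4, all 9 genes passed in the same direction, and Smad4 had a log2 fold change of 0.78 (limma adjusted p = 0.0136). That fit called 4346 of 8880 genes.

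**Figure D2:**
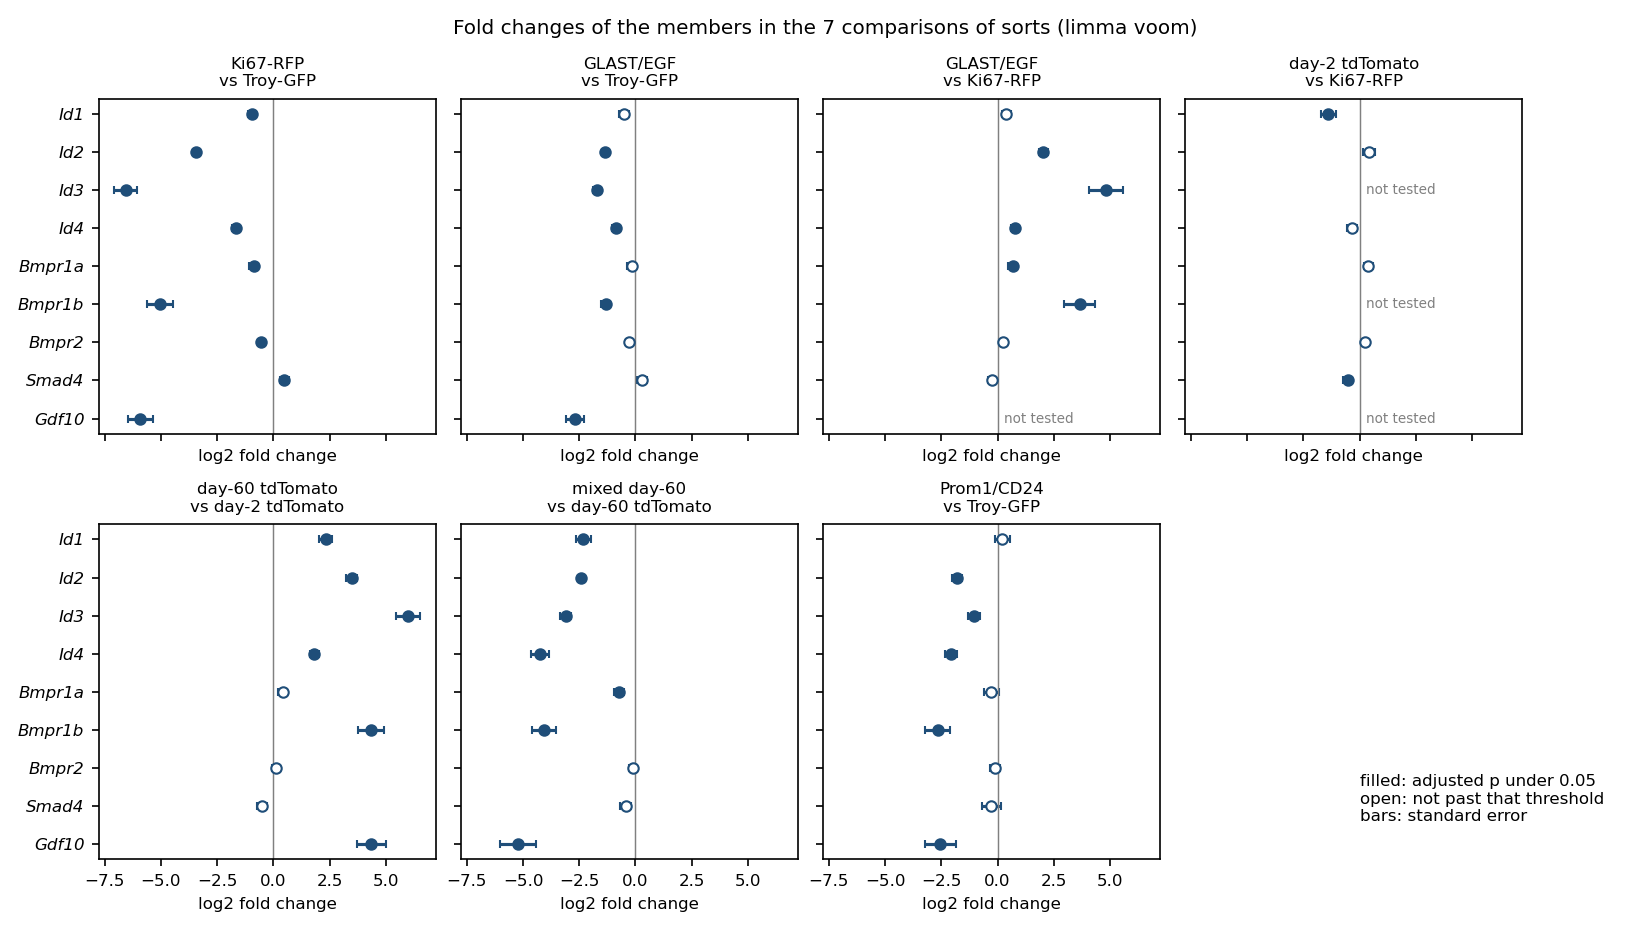
Log2 fold change of each gene (horizontal axis, with its standard error) in the 7 comparisons of sorts, filled where limma's adjusted p is under 0.05. Id3 reaches -6.57 in Ki67-RFP against Troy-GFP and Id4 -4.25 in mixed day-60 against day-60 tdTomato, while Bmpr1a, Bmpr2 and Smad4 stay within a log2 change of 1 either way.

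GLAST/EGF cells held less Id2, Id3, Id4, Bmpr1b and Gdf10 than Troy-GFP cells, while Id1, Bmpr1a, Bmpr2 and Smad4 did not pass. These 5 of 9 genes, all lower, stand beside 30.4% of 7818 genes called, 14.9% higher and 15.5% lower in GLAST/EGF. Gdf10 met the filter through Troy-GFP alone, so it had to differ, and its call is a description. Id2 stood at 360, 212, 266 and 282 CPM in GLAST/EGF libraries, all below the lowest Troy-GFP library, with a log2 fold change of -1.35 ± 0.14 (limma adjusted p = 5.14e-07). Id3 stood at 153, 125.5, 92.8 and 216 CPM in GLAST/EGF libraries, also without overlap, with a log2 fold change of -1.70 ± 0.18 (limma adjusted p = 1.21e-06). Both genes thus lay between Ki67-RFP and Troy-GFP in every library. With cells thinned to 1000 transcripts the log2 fold changes were smaller, at -0.83 for Id2 and -0.99 for Id3 (limma adjusted p = 0.00408 and 0.00397).

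Id4 stood at 144, 189, 215 and 276 CPM in GLAST/EGF libraries, against at least 329 CPM in Troy-GFP, and its log2 fold change was -0.86 ± 0.16 (limma adjusted p = 0.000512). Bmpr1b, at 39.9, 41.6, 49.5 and 78.2 CPM in GLAST/EGF libraries, had a log2 fold change of -1.33 ± 0.22 (limma adjusted p = 0.000111). Gdf10, at 13.3, 5.54, 15.1 and 12.3 CPM in GLAST/EGF libraries, had a log2 fold change of -2.68 ± 0.41 (limma adjusted p = 4.58e-05). Each of the 3 genes was lower in every GLAST/EGF library than in any Troy-GFP library.

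Id1 stood at 120, 78, 73.5 and 76.3 CPM in GLAST/EGF libraries, overlapping Troy-GFP, with a log2 fold change of -0.51 ± 0.20 (limma adjusted p = 0.065). It passed as lower without Troy-GFP library 2 (log2 fold change -0.66, limma adjusted p = 0.0247), without GLAST/EGF library 1 (-0.68, adjusted p = 0.0247) or without the cluster led by intestinal genes (-0.61, adjusted p = 0.0366). Without endothelial-like cells the difference was near 0 (log2 fold change -0.01, limma adjusted p = 0.99). In the libraries of flow cell HVJH2BGXX alone, 2 in each group, the same 5 genes passed.

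Against Ki67-RFP cells, GLAST/EGF cells held more Id2, Id3, Id4, Bmpr1a and Bmpr1b, 5 of 8 genes tested and all higher, beside 36% of 7798 genes called, 18.9% higher and 17.1% lower. Id3 and Bmpr1b met the filter through GLAST/EGF alone, so they had to differ, and their calls are a description. Id2 had a log2 fold change of 2.03 ± 0.19 (limma adjusted p = 7.83e-09), Id3 of 4.82 ± 0.74 (limma adjusted p = 1.22e-05) and Bmpr1b of 3.65 ± 0.70 (limma adjusted p = 0.000189), each with all GLAST/EGF libraries above all Ki67-RFP libraries. Id4 overlapped between the groups and had a log2 fold change of 0.77 ± 0.19 (limma adjusted p = 0.00235). Bmpr1a stood at 98.6, 77.8, 99.1 and 90.5 CPM in GLAST/EGF libraries, against 65.1, 44.2, 68.7 and 63.7 CPM in Ki67-RFP libraries, a log2 fold change of 0.67 ± 0.20 (limma adjusted p = 0.00843). On flow cell HVJH2BGXX alone, with 2 GLAST/EGF libraries, Id4 (limma adjusted p = 0.131) and Bmpr1a (limma adjusted p = 0.0858) no longer passed. With cells thinned to 1000 transcripts, Id2 had a log2 fold change of 3.40, Id4 of 1.84 and Bmpr2, which then passed, of 0.81 (limma adjusted p = 7.20e-09, 0.000265 and 0.0276). Gdf10, which was not tested, was read as 20 transcripts in GLAST/EGF and 2 in Ki67-RFP, 12.3-fold higher with a 95% counting interval of 2.99 to 109. Id1 and Smad4 did not pass, with log2 fold changes of 0.40 ± 0.20 and -0.23 ± 0.17 (limma adjusted p = 0.132 and 0.316).

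Between cells labelled through Mki67 and taken 2 days later and current Ki67-RFP cells, Id1 gave the clearest difference. Of 6 genes tested 2 passed, both lower at day 2, beside 28.5% of 6952 genes called, 14.3% higher and 14.2% lower. Id1 stood at 24.7, 29.7, 17.1 and 33 CPM in day-2 libraries, all below the 56.4 to 83.9 CPM of Ki67-RFP libraries, with a log2 fold change of -1.40 ± 0.33 (limma adjusted p = 0.00208). It passed in all 8 fits that left out a library, with limma adjusted p up to 0.0243. Neuroblast-like cells, the class with little Id1 among these, made up 62.8% of day-2 cells and 33.3% of Ki67-RFP cells, dividing cells 26.6% and 45.9%, and progenitor-like cells 4.68% and 16.6%. The part of these shares in the Id1 difference was not tested. No flow cell is named for the day-2 libraries, so whether they ran apart from the Ki67-RFP libraries is not known.

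Smad4 stood at 74, 85.2, 71 and 84.1 CPM in day-2 libraries, against 102 to 130 CPM in Ki67-RFP libraries, with a log2 fold change of -0.54 ± 0.19 (limma adjusted p = 0.0348). Although the libraries did not overlap, the Smad4 call was lost by leaving out Ki67-RFP library 1 (limma adjusted p = 0.0529) or library 3 (0.0804), or day-2 library 1 (0.0755), library 2 (0.0504), library 3 (0.136) or library 4 (0.0628). Id2 did not pass (log2 fold change 0.43 ± 0.27, limma adjusted p = 0.241), but did so without day-2 library 2 (0.71, adjusted p = 0.0308). In day-2 tdTomato 6 NSC-like cells held 2.57% of all transcripts and 63.1% of Id2. Mean Id2 was 39.5 CPM in dividing and 29.8 CPM in neuroblast-like cells of day 2. The Ki67-RFP means were 56.5 and 69.8 CPM (n = 4 libraries each), and this contrast by class was not tested. Id4 and Bmpr1a had log2 fold changes of -0.34 ± 0.20 and 0.39 ± 0.22 (limma adjusted p = 0.216 and 0.186). Id3, Bmpr1b and Gdf10 were too low to be tested: they were read as about 12, 15 and 6 transcripts in day-2 tdTomato and 11, 12 and 2 in Ki67-RFP.

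Within the Mki67 lineage, day-60 cells held more of all 4 Id genes, Bmpr1b and Gdf10 than day-2 cells. These 6 of 9 genes, all higher, stand beside 67.6% of 7648 genes called, 34.8% higher and 32.8% lower at day 60. Gdf10 met the filter through day 60 alone, so it had to differ, and its call is a description. NSC-like cells made up 82.8% of day-60 and 2.48% of day-2 cells, neuroblast-like cells 0.562% and 62.8%, and dividing cells 0% and 26.6%, and the part of these shares in the differences was not tested. Id2 stood at 952, 1096, 1003 and 906 CPM in day-60 libraries, against 74.8, 48.2, 158 and 119 CPM in day-2 libraries, a log2 fold change of 3.49 ± 0.24 (limma adjusted p = 6.37e-10). Id3 stood at 440, 648, 473 and 463 CPM in day-60 libraries, against 0, 7.41, 8.53 and 25.7 CPM in day-2 libraries, a log2 fold change of 5.99 ± 0.55 (limma adjusted p = 3.08e-08). Neither gene had overlapping groups.

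Id4 stood at 324, 386, 384 and 239 CPM in day-60 libraries, against 103, 96.7, 108 and 87.9 CPM in day-2 libraries, a log2 fold change of 1.82 ± 0.20 (limma adjusted p = 3.03e-07). Id1 stood at 129, 115, 135 and 106 CPM in day-60 libraries, all above the day-2 range of 17.1 to 33 CPM, with a log2 fold change of 2.32 ± 0.31 (limma adjusted p = 2.69e-06). Without endothelial-like cells the Id1 fold change was 2.04 on the log2 scale and still passed (limma adjusted p = 1.11e-05). Bmpr1b stood at 137, 193, 229 and 177 CPM in day-60 libraries, against 16.5, 0, 25.7 and 7.32 CPM in day-2 libraries, a log2 fold change of 4.33 ± 0.58 (limma adjusted p = 3.08e-06). Gdf10 stood at 78.3, 135, 74.5 and 48.5 CPM in day-60 libraries, against 0, 0, 14.3 and 3.65 CPM in day-2 libraries, a log2 fold change of 4.36 ± 0.64 (limma adjusted p = 8.79e-06). All groups of these genes stood apart.

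Bmpr1a (log2 fold change 0.42 ± 0.21, limma adjusted p = 0.0774), Bmpr2 (0.10 ± 0.18, adjusted p = 0.626) and Smad4 (-0.50 ± 0.22, adjusted p = 0.0545) did not pass between day 60 and day 2. Bmpr1a passed as higher without day-60 library 4 (limma adjusted p = 0.0442) and without endothelial-like cells (0.0454). Smad4 passed as lower without day-60 library 4 (limma adjusted p = 0.0351), day-2 library 1 (0.0468), day-2 library 3 (0.0478) or endothelial-like cells (0.0366). Age differed along with time since tamoxifen, at 16 to 19 weeks for day 60 and 8 to 10 weeks for day 2, and the 2 cannot be told apart. No flow cell is named for the day-2 libraries, so whether they ran apart from the day-60 libraries is not known.

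The mixed day-60 sort, to which bulb cells and O4 cells were added, held less of 7 of the 9 genes than day-60 SEZ cells, all but Bmpr2 and Smad4. The background was 43.3% of 8152 genes called, 22.2% higher and 21.1% lower. Gdf10 met the filter through day-60 tdTomato alone, so it had to differ, and its call is a description. Id4 stood at 6.91, 27, 30.9 and 20.2 CPM in mixed libraries, against 239 to 386 CPM in day-60 libraries, a log2 fold change of -4.25 ± 0.42 (limma adjusted p = 5.68e-07). Id2, at 146, 235, 215 and 207 CPM in mixed libraries, had a log2 fold change of -2.42 ± 0.15 (limma adjusted p = 3.22e-09). Id3, at 41.6, 61, 42.3 and 118 CPM in mixed libraries, had a log2 fold change of -3.11 ± 0.26 (limma adjusted p = 1.08e-07). No mixed library reached a day-60 library for any of the 3.

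Id1, at 16.1, 27, 14 and 52 CPM in mixed libraries, had a log2 fold change of -2.33 ± 0.34 (limma adjusted p = 3.16e-05). Bmpr1b, at 4.61, 23.7, 5.61 and 20.2 CPM in mixed libraries, had a log2 fold change of -4.06 ± 0.52 (limma adjusted p = 9.66e-06). Gdf10 was read as 2 transcripts in the mixed sort and 151 at day 60, 64.7-fold lower with a 95% counting interval of 17.6 to 539. Bmpr1a had a log2 fold change of -0.73 ± 0.22 (limma adjusted p = 0.013), which did not pass without mixed library 3 (limma adjusted p = 0.0542). Bmpr2 (-0.13 ± 0.16, limma adjusted p = 0.556) and Smad4 (-0.43 ± 0.25, limma adjusted p = 0.181) did not pass. The NSC-like share was 8.4% ± 3.33 in the mixed sort and 82.8% ± 1.57 in day-60 tdTomato (SD, n = 4 libraries each), and the mixed sort held 39.7% oligodendrocyte-like and 23.6% mature neuron-like cells.

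Prom1/CD24 cells held less Id2, Id3, Id4, Bmpr1b and Gdf10 than Troy-GFP cells, 5 of 9 genes and all lower, beside 26% of 5680 genes called, 13.7% higher and 12.3% lower. Bmpr1b met the filter through Troy-GFP alone, so it had to differ, and its call is a description. The Prom1/CD24 sort holds 64 cells. Id4 stood at 80.4, 88.9, 88.5 and 67.4 CPM in Prom1/CD24 libraries, against 329 to 431 CPM in Troy-GFP libraries, a log2 fold change of -2.06 ± 0.27 (limma adjusted p = 7.79e-05). Id2, at 162, 134, 290 and 204 CPM in Prom1/CD24 libraries, had a log2 fold change of -1.80 ± 0.21 (limma adjusted p = 3.23e-05). Both genes were without overlap. Bmpr1b, at 0, 35.5, 22.1 and 9.62 CPM in Prom1/CD24 libraries, had a log2 fold change of -2.66 ± 0.56 (limma adjusted p = 0.00292), and Gdf10, at 40.2, 0, 22.1 and 0 CPM, of -2.54 ± 0.68 (limma adjusted p = 0.0129).

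Id3, at 142, 315, 335 and 106 CPM in Prom1/CD24 libraries, had a log2 fold change of -1.04 ± 0.28 (limma adjusted p = 0.0119), which did not pass without Prom1/CD24 library 4 (limma adjusted p = 0.076) or on flow cell HVJH2BGXX alone (0.058). Without endothelial-like cells the Id3 difference was larger, at -1.61 on the log2 scale (limma adjusted p = 0.00383). Id1, at 142, 179, 213 and 57.7 CPM in Prom1/CD24 libraries, spread more widely than in any other sort and did not pass (log2 fold change 0.21 ± 0.34, limma adjusted p = 0.696). Endothelial-like cells made up 16.9% of Prom1/CD24 cells and held 57.8% of the Id1 transcripts of the sort, 38.5% of Id3 and 47.8% of Bmpr2.

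Cells were then grouped by type. Clustering left out all 9 genes, the listed pathway genes, ribosomal protein genes and cell cycle genes, and gave 22 clusters, of which 4 took the name NSC-like from fixed markers, 1 progenitor-like, 2 neuroblast-like, and 3 were led by genes of cell division. Astrocytes carry the same markers as quiescent NSCs, and the name covers both. Clusters and levels come from the same cells, so levels between classes are described without a test. Among named classes with at least 3 libraries of at least 5 cells, and by the mean over those libraries, 5 of the 9 genes were highest in NSC-like cells (Id2, Id4, Bmpr1a, Bmpr1b and Gdf10), Id1, Id3 and Bmpr2 were highest in endothelial-like cells, and Smad4 in neuroblast-like cells. How many of all genes were highest in NSC-like cells was not counted. The place of Smad4 was not stable, since it was highest in endothelial-like cells in 5 of 6 other clusterings or depth settings, and Bmpr1a was highest in progenitor-like cells at a finer clustering (Leiden resolution 2.0). Unnamed clusters with 2 such libraries lay above the NSC-like mean for 3 of the genes: Bmpr1a averaged 138 CPM in the cluster led by Vtn, Dcn and Npy, against 115 CPM in NSC-like cells, and in the cluster led by intestinal genes Id4 averaged 441 CPM, against 378 CPM, and Gdf10 86.1 CPM, against 67.1 CPM. The 2 libraries of the cluster led by intestinal genes lay far apart, at 276 and 605 CPM for Id4 and 0 and 172 CPM for Gdf10.

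The Id genes parted ways between NSC-like and dividing cells. Pooled over all sorts, Id2 had 1018 CPM in NSC-like cells, 102 in progenitor-like, 56.8 in dividing and 51.9 in neuroblast-like cells. Id3 had 503 CPM in NSC-like cells, 37.8 in progenitor-like, 4.60 in dividing and 2.99 in neuroblast-like cells. Id1 by contrast had 90.3 CPM in NSC-like cells, 91.3 in progenitor-like and 71.1 in dividing cells, and 8.97 in neuroblast-like cells. Its pooled level was thus about the same in NSC-like and progenitor-like cells and low in neuroblast-like cells, where Id2 and Id3 were low already in progenitor-like cells.

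Id4 had 403 CPM in NSC-like cells, 144 in progenitor-like, 99.2 in dividing and 137 in neuroblast-like cells, and 5.44 in mature neuron-like cells. Neuroblast-like cells therefore still held Id4, and mature neuron-like cells, nearly all from the mixed sort, held very little. Id2 was seen again in mature neuron-like cells at 146 CPM, in oligodendrocyte precursor-like cells at 301 CPM and in microglia-like cells at 236 CPM, and stood at 15.7 CPM in oligodendrocyte-like cells. Id1 was at 0 in 79 mature neuron-like cells, which allows up to 5.43 CPM.

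**Figure D3:**
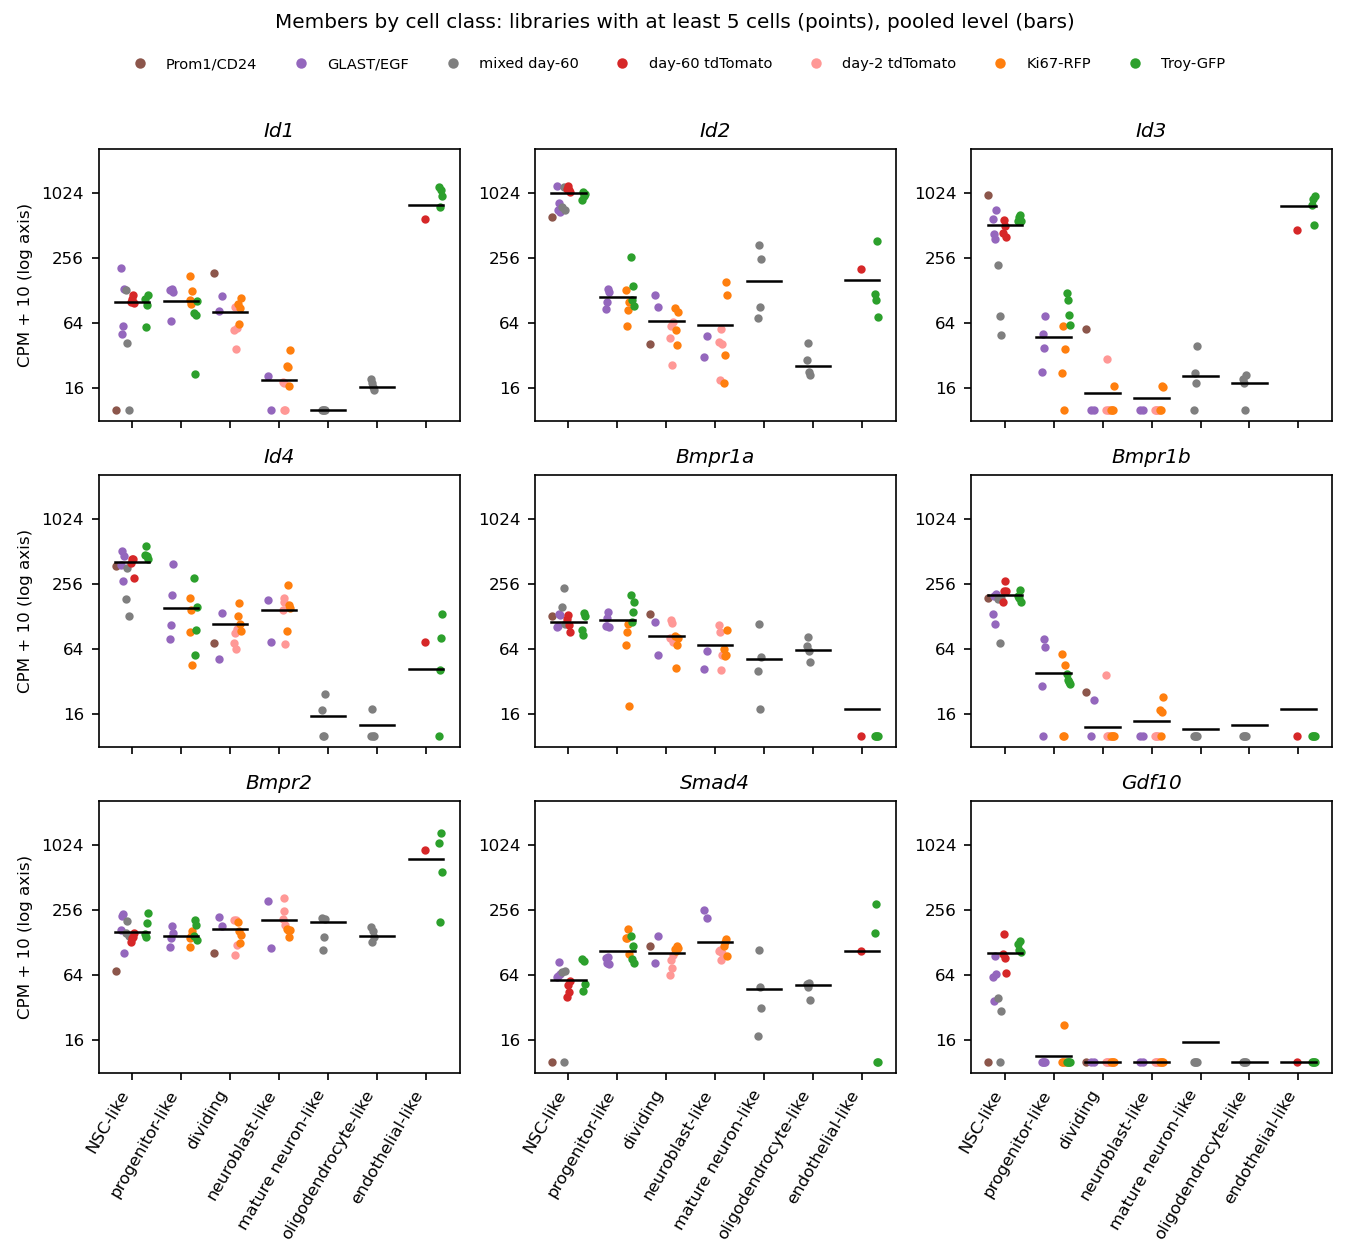
Level of each gene plus 10 CPM (log axis) by cell class, with a point for each library that has at least 5 cells of the class, coloured by sort, and a bar for the level pooled over all cells. The pooled level of Id1 stays near 90 CPM in NSC-like and progenitor-like cells and is high in endothelial-like cells. Id2 and Id3 are lower in progenitor-like than in NSC-like cells.

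For Id2 and Id3 the same steps were seen inside single sorts, while Id1 differed between sorts. In GLAST/EGF, where the 4 libraries hold both classes, Id3 stood at 12.7, 40.7, 28 and 64 CPM in progenitor-like cells, against 577, 418, 373 and 699 CPM in NSC-like cells of the same libraries. Id2 stood at 76, 89.4, 122 and 113 CPM in progenitor-like cells, against 1165, 701, 813 and 671 CPM in NSC-like cells. Id1 stood at 121, 56.8, 122 and 113 CPM in progenitor-like cells, against 198, 40.2, 49.6 and 122 CPM in NSC-like cells, higher in some libraries and lower in others. Id2 and Id3 were thus lower in progenitor-like cells in all 4 libraries, and Id1 in 2 of them.

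In Troy-GFP, progenitor-like cells held 250, 93.5, 131 and 82.9 CPM of Id2, against 873, 1037, 951 and 983 CPM in NSC-like cells. Id3 stood there at 111, 93.8, 65.5 and 51.9 CPM in progenitor-like cells, against 548, 604, 633 and 552 CPM in NSC-like cells. Bmpr1b stood at 27.5, 23.2, 21.7 and 20.7 CPM in progenitor-like cells, against 188, 179, 215 and 163 CPM in NSC-like cells. Progenitor-like cells lay below NSC-like cells in all 4 Troy-GFP libraries for the 3 genes, and also for Id1, at 69, 11.6, 65.3 and 93.3 CPM in progenitor-like cells, against 97.1, 49.2, 84.6 and 105 CPM in NSC-like cells. In Ki67-RFP, Id1 averaged 116 ± 35.5 CPM in progenitor-like, 78.7 ± 19.5 in dividing and 15.9 ± 8.03 in neuroblast-like cells (n = 4 libraries), and neuroblast-like cells were lowest in every library.

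Receptors and ligand also divided by class. Bmpr1b had 194 CPM in NSC-like cells, 28.8 in progenitor-like, 2.31 in dividing and 3.74 in neuroblast-like cells. Bmpr1a had 103 CPM in NSC-like cells, 108 in progenitor-like, 74.6 in dividing and 60.6 in neuroblast-like cells, a far smaller range, and 8.02 CPM in endothelial-like cells. Bmpr2 stayed between 137 and 197 CPM across these 4 classes, and Smad4 ran the other way, at 48.2 CPM in NSC-like cells, 98.0 in progenitor-like, 93.1 in dividing and 121 in neuroblast-like cells. The type I receptors thus differed in pattern: progenitor-like and dividing cells held Bmpr1a with little Bmpr1b.

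Among the named classes Gdf10 was highest in NSC-like cells, at 92.5 CPM, with 1.37 CPM in progenitor-like cells. The unnamed cluster led by intestinal genes held it too, at 119 CPM, though its 11 GLAST/EGF cells held none. The cluster carried 16.8% of the Gdf10 transcripts of Troy-GFP, against 83.2% in NSC-like cells. Gdf10 was read in 26.4% of 629 NSC-like cells (median depth 4930 transcripts). In dividing cells it was read in 0 of 249 (median depth 7740), which allows up to 1.2% of such cells with a transcript. In neuroblast-like cells it was read in 0 of 271 (median depth 3690), which allows up to 1.11%. When cells were thinned to 1000 transcripts each, 6.04% of NSC-like cells and 0 of the dividing and neuroblast-like cells held a Gdf10 transcript. Oligodendrocyte-like cells, taken as a class that should lack it, gave 0 of 142 (median depth 4990). These limits concern cells in which a transcript is read and set no bound on the cells that express the gene, and they cover counting error only, as do the intervals.

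The 4 NSC-like clusters had different pooled levels of these genes. Id2 had 620 CPM (95% counting interval 553 to 692) in the cluster led by Thbs4, 1161 CPM (1111 to 1214) in the cluster led by Crym, 974.8 CPM (903 to 1050) in that led by Atp13a4 and 989 CPM (887 to 1101) in that led by Agt. Id3 ran in another order, with 721 CPM (649 to 799) in the Thbs4 cluster, 542 CPM (507 to 578) in the Crym cluster, 348 CPM (306 to 395) in the Atp13a4 cluster and 302 CPM (247 to 366) in the Agt cluster. By these pooled levels the Thbs4 cluster, whose leading genes include Gfap, had the lowest Id2 and the highest Id3 of the 4, but sorts contribute to the clusters in different shares and single libraries overlapped. Over libraries with at least 5 cells of a cluster, Id2 averaged 685 ± 189 CPM in the Thbs4 cluster (n = 10), 1056 ± 241 in the Crym cluster (n = 13), 925 ± 260 in the Atp13a4 cluster (n = 12) and 1028 ± 258 in the Agt cluster (n = 8). Id3 averaged 739.5 ± 349 CPM in the Thbs4 cluster (190 to 1177), 532 ± 216 in the Crym cluster (0 to 932), 370 ± 146 in the Atp13a4 cluster (201 to 726) and 251.2 ± 217 in the Agt cluster (56.6 to 741). Libraries of the 4 clusters thus overlapped for both genes, and the clusters were not compared within libraries.

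Id4 had 533 CPM (472 to 601) in the Thbs4 cluster, 457 CPM (426 to 491) in the Crym cluster, 318 CPM (278 to 363) in the Atp13a4 cluster and 112 CPM (79.4 to 154) in the Agt cluster. Gdf10 had 13.8 CPM (5.56 to 28.5) in the Thbs4 cluster, 117 CPM (102 to 135) in the Crym cluster, 121 CPM (96.9 to 150) in the Atp13a4 cluster and 26.5 CPM (12.1 to 50.3) in the Agt cluster. By these pooled levels, low Gdf10 went with high Id4 in the Thbs4 cluster and with low Id4 in the Agt cluster. Single libraries overlapped here too. Id4 ran from 266 to 805 CPM in the Thbs4 cluster and from 35.7 to 316 CPM in the Agt cluster. Gdf10 ran from 0 in each cluster up to 34.9 CPM (Thbs4), 190.5 (Crym), 249 (Atp13a4) and 84.6 (Agt). Bmpr1b, at 164 to 211 CPM, had overlapping intervals in all 4 clusters. Of the 77 cells of the Agt cluster 20 came from the mixed day-60 sort, and of the 108 cells of the Thbs4 cluster 56 came from Troy-GFP.

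**Figure D4:**
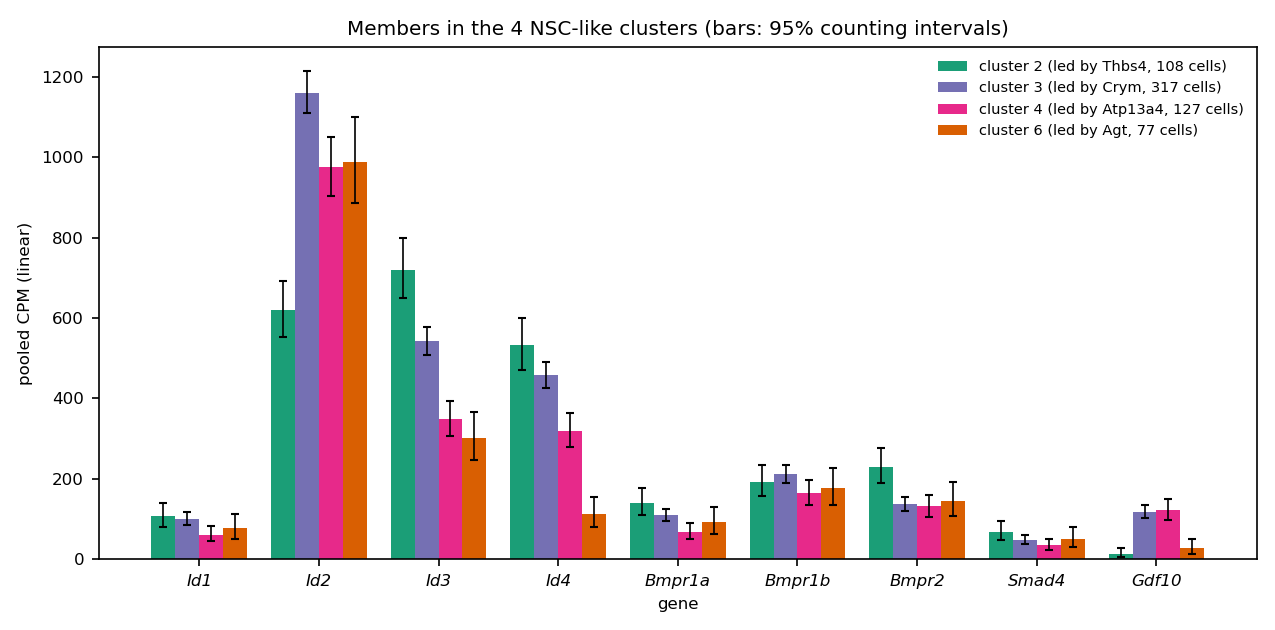
Pooled level in CPM (linear axis) of each gene in the 4 NSC-like clusters, named by their leading gene, with 95% counting intervals. The Thbs4 cluster has the highest Id3 (721 CPM) and little Gdf10 (13.8 CPM), and the Agt cluster has the lowest Id4 (112 CPM).

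Within the NSC-like class 2 pairs of sorts were tested, and none of the 9 genes passed in either. NSC-like cells of day-60 tdTomato (289 cells) against Troy-GFP (205 cells) gave 0 of 9 genes past the threshold, beside 2.74% of 6392 genes called by limma, 1.47% higher and 1.27% lower. At an unadjusted p under 0.05, 3 of the 9 genes differed: Id2 was higher at day 60 (log2 fold change 0.22 ± 0.10, limma adjusted p = 0.242), and Id3 (-0.31 ± 0.12, adjusted p = 0.204) and Id4 (-0.31 ± 0.13, adjusted p = 0.242) were lower. Id2 stood at 1091, 1171, 1088 and 1031 CPM in NSC-like cells of day-60 libraries, against 873, 1037, 951 and 983 CPM in those of Troy-GFP libraries, and only the lowest day-60 library lay within the Troy-GFP range. Id3 stood at 428, 563, 491 and 386 CPM in NSC-like cells of day-60 libraries, against 548, 604, 633 and 552 CPM in those of Troy-GFP libraries, with 1 day-60 library inside the Troy-GFP range. The cells of the 2 sorts also fell into the NSC-like clusters in different numbers: the Thbs4 cluster, low in pooled Id2 and high in pooled Id3 and Id4, held 28 of the 289 day-60 cells and 56 of the 205 Troy-GFP cells, and the Agt cluster 33 and 9. The part of these numbers in the differences was not tested. A limma-trend fit in place of voom also called none of the 9.

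NSC-like cells of GLAST/EGF (87 cells) against Troy-GFP gave 0 of 8 genes tested, beside 0.0282% of 3540 genes called, 0% higher and 0.0282% lower, and 0 of the 8 had an unadjusted p under 0.05. Id2 had a log2 fold change of -0.23 ± 0.15, Id3 of -0.20 ± 0.17 and Id4 of -0.29 ± 0.18 (limma adjusted p = 0.833, 0.908 and 0.833), against -1.35, -1.70 and -0.86 between the whole sorts. Gdf10 kept the largest difference, at 55.4 ± 24.6 CPM in NSC-like cells of GLAST/EGF and 108 ± 13.6 CPM in those of Troy-GFP (SD, n = 4 libraries each; log2 fold change -0.94 ± 0.47, limma adjusted p = 0.809). A p that misses the threshold does not show equal levels. The NSC-like share was 40.2% ± 8.28 of cells in GLAST/EGF and 65.8% ± 15.1 in Troy-GFP.

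Endothelial-like cells carried a large part of Id1. In Troy-GFP libraries, Id1 stood at 1139, 752, 1080 and 947 CPM in endothelial-like cells, against 97.1, 49.2, 84.6 and 105 CPM in NSC-like cells. The 27 endothelial-like cells held 4.62% of Troy-GFP transcripts and 37.4% of its Id1 transcripts, 8.34% of Id3 and 16.2% of Bmpr2. In day-60 tdTomato, 15 such cells held 3.65% of transcripts and 21.4% of Id1. Id3 stood at 772, 882, 503 and 946 CPM in endothelial-like cells of Troy-GFP, above the NSC-like level in 3 of 4 libraries, and Bmpr2 at 1066, 187, 1299 and 566 CPM, against 134 to 229 CPM in NSC-like cells. Bmpr1b and Gdf10 were at 0 in the endothelial-like cells of all 4 Troy-GFP libraries. The summed level of 12 endothelial markers was 1560 to 5420 CPM in Prom1/CD24 libraries, 29.3 to 1050 in GLAST/EGF, 140 to 1110 in mixed day-60, 425 to 1360 in day-60 tdTomato, 0 to 28.4 in day-2 tdTomato, 5.56 to 23.6 in Ki67-RFP and 1060 to 1720 in Troy-GFP, with 9 of the 12 at 0 in day-2 tdTomato and 4 in Ki67-RFP. An unnamed cluster of 38 cells led by Vtn, Dcn and Npy held Id3 unevenly: it pooled to 851 CPM, but to 428 CPM in its 23 cells of the mixed sort, with 187 and 230 CPM in the 2 libraries that had at least 5 of its cells. At Leiden resolution 2.0 these genes led 2 clusters, a fibroblast-like one led by Dcn and an unnamed one led by Npy.

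A list of 67 other genes of the pathway was followed beside the 9. In Ki67-RFP against Troy-GFP, 33 were tested, 7 were higher and 14 lower, beside 28.4% higher and 31.2% lower of all genes tested. Their median log2 fold change was -0.41, against -0.02 over all genes tested. Tgfbr1, a receptor of the TGF-beta branch (1.51 ± 0.23), and Tcf3, an E protein that Id proteins hold (1.31 ± 0.22), were among the higher genes, and Htra1, a secreted protease (-7.34 ± 0.45), and Bmp7, a ligand read as 3 transcripts in Ki67-RFP and 105 in Troy-GFP, among the lower, with limma adjusted p of 2.94e-06 for Tgfbr1, 1.2e-05 for Tcf3, 2.21e-13 for Htra1 and 1.38e-08 for Bmp7. At day 60 against day 2, 30 were tested, 14 were higher and 9 lower, beside 34.8% higher and 32.8% lower of all genes. The median of the listed genes was 0.61, against 0.01 over all genes. Bmp7, read as 104 transcripts at day 60 and 1 at day 2, was among the higher genes (limma adjusted p = 1.09e-07), and Twsg1, a secreted protein that binds BMPs, among the lower (-2.06 ± 0.23, limma adjusted p = 4.01e-07).

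In GLAST/EGF against Troy-GFP 4 of 32 listed genes tested were higher, Tgfbr1 among them (0.89 ± 0.26, limma adjusted p = 0.0131), and 8 were lower. Of all genes tested there, 14.9% were higher and 15.5% lower. In GLAST/EGF against Ki67-RFP 10 of 28 were higher and 7 lower, beside 18.9% higher and 17.1% lower of all genes. In day-2 tdTomato against Ki67-RFP 0 of 21 were higher and 4 lower, beside 14.3% and 14.2% of all genes. Acvr2b, a type II receptor, was lower most of all (-2.71 ± 0.44, limma adjusted p = 5.63e-05). In mixed day-60 against day-60 tdTomato 4 of 32 were higher, led by the helix-loop-helix genes Olig1 (4.01 ± 0.22, limma adjusted p = 1.12e-09) and Olig2 (3.83 ± 0.41, limma adjusted p = 1.42e-06), and 11 were lower. The shares of all genes were 22.2% higher and 21.1% lower. In Prom1/CD24 against Troy-GFP 2 of 26 were higher, Eng, a co-receptor of endothelium, most (2.50 ± 0.37, limma adjusted p = 0.000221), and 5 were lower. Of all genes in that fit, 13.7% were higher and 12.3% lower. In NSC-like cells of day-60 tdTomato against Troy-GFP the antagonist Crim1 was the listed gene that passed (-0.97 ± 0.26, limma adjusted p = 0.0297). It was 1 of 25 tested, beside 1.47% higher and 1.27% lower of all genes.

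Over the 28 libraries, the genes whose log2(CPM + 10) was most like that of Id2 were Fjx1, Appl2, Cldn10, Nkain4 and Ppap2b (Pearson r 0.97 each, among 4666 genes with a mean of at least 50 CPM). Those most like Id3 were Fxyd1, Sfxn5, Ppap2b, Fbxo2 and Gstm1 (r 0.95 to 0.96), and those most like Id4 were Gna13, Nr2e1, Mt2, Notch1 and Dkk3 (r 0.88 to 0.93). Id1 had weaker partners, with Gm20594, Sox9, Ptprg, Brip1 and Prdm16 at r 0.79 to 0.83. Among the 9 genes themselves, r was 0.90 between Id2 and Id3, 0.91 between Id2 and Bmpr1b, 0.53 between Id1 and Id2 and 0.49 between Id3 and Id4. The libraries fall into sorts of 4 that share cell makeup and depth, so these values describe likeness across sorts.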

How the data were processed

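SORT-seq libraries were read on an Illumina NextSeq500 (75 bp paired reads), per the labels' protocols, and mapped with BWA 0.6.2-r126 to mm10, per the submitters' processing notes; the counter and annotation are not given in the sources used here. The tables deposited by the authors hold estimated transcripts per gene and well: of 4801006 values above 0, 4800995 equalled, within 1e-06, the collision correction of a whole number of the 256 molecule barcodes. This unit is recorded as other, so limma was used in place of a count model.

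Wells with at least 1000 transcripts over gene rows (87 ERCC rows left out) were kept. Cells were sorted 1 per well, and no doublet caller was run. Clustering used scanpy 1.11.5 (2000 variable genes, 30 components, 15 neighbours, Leiden resolution 1.0, seed 7). A cluster was named from at least 3 fixed markers among its 100 leading genes; clusters with 3 or more cell division genes among the top 10 were called dividing. Clusters led by fibroblast or intestinal genes stayed unnamed.

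Sums per library were tested with limma 3.58.1 (voom, R 4.3.3), with scaling factors by trimmed mean of M values from the genes of each comparison. Genes needed 10 transcripts at median library size in as many libraries as the smaller group and 15 in all. Adjusted p is Benjamini-Hochberg over all genes of a comparison. Levels use 1 scaling over all libraries, so they can differ slightly from those behind a fold change. Library numbers did not pair the samples: correlations of deviations between same-numbered libraries lay between -0.0788 and 0.0664 over 36 pairs. The fit was also run on simulated data for Ki67-RFP and Prom1/CD24, each against Troy-GFP, with a single fixed spread and few genes changed. Its outcome is not given here, and it does not speak for the other comparisons or for the p-values above.

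The members, gene lists and tests were chosen with earlier results of these data known. Beside the 9 members, the text names at most 4 listed pathway genes per comparison and direction (passing, with the largest fold change) and the 5 genes most like each Id gene; others named lead clusters, mark sorts or overlap a member. Not every gene that the rule picks is named.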

Additional observations from a re-analysis of the deposited data

Results flagged for a closer look

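Of 63 sets of 4 libraries (9 genes in 7 sorts), 4 held a library whose gap to its nearest neighbour took more of the range than Dixon's 95% limit for 4 values allows; chance flags about 1 in 20 sets. Id1 stood at 120 CPM in GLAST/EGF library 1, against 73.5 to 78 CPM in the other GLAST/EGF libraries. Id3 stood at 648 CPM in day-60 tdTomato library 2, against 440 to 473 CPM in the others. Bmpr2 stood at 161 CPM in Troy-GFP library 2, against 222 to 233 CPM in the others. That library holds the 24 Troy-GFP cells of the cluster led by intestinal genes, and their part in its level was not tested. Gdf10 stood at 3.71 CPM, about 2 transcripts, in Ki67-RFP library 3, and at 0 in the others.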

How the results depend on the processing

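Over 76 fold changes, 1256 values were recomputed: 1227 kept their side of the threshold, 17 no longer passed and 12 newly passed. No value that passed turned round. The 1227 include 20 cases in which the sign changed between values that both missed the threshold. Thinning each cell to 1000 transcripts left fewer genes to test and changed the counts of passing genes most. In Ki67-RFP against Troy-GFP 4 of 4 tested passed, beside 1157 of 1732 among all genes. It was 3 of 4 in GLAST/EGF against Troy-GFP (267 of 1259) and 0 of 1 in day-2 tdTomato against Ki67-RFP (401 of 1493). It was 3 of 4 in day-60 against day-2 tdTomato (1243 of 1643) and 3 of 4 in mixed day-60 against day-60 tdTomato (976 of 1803). In Prom1/CD24 against Troy-GFP 3 of 3 passed (289 of 742). On flow cell HVJH2BGXX alone, 3 of 8 passed in GLAST/EGF against Ki67-RFP, beside 1983 of 8422 among all genes. In Prom1/CD24 against Troy-GFP 3 of 7 passed there, beside 779 of 3067. With no filter on low values, 1 of the 9 genes passed in day-2 tdTomato against Ki67-RFP, beside 2138 of 14771 among all genes. Leaving out 1 library gave 8 to 9 passing genes for Ki67-RFP against Troy-GFP, 5 to 6 for GLAST/EGF against Troy-GFP, 5 throughout against Ki67-RFP, 1 to 2 for day-2 tdTomato against Ki67-RFP, 6 to 8 for day-60 against day-2 tdTomato, 6 to 7 for the mixed sort, 4 to 5 for Prom1/CD24 and 0 throughout within NSC-like cells. The shares of all genes called with every library kept are given with each comparison above. The causes of these changes were not tested.

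A replicate block gave 9, 5, 5, 2, 6, 7, 5, 0 and 0 passing genes over the 9 comparisons in the order described, as many as without it; since library numbers pair no samples, it is given here alone. Leaving out endothelial-like cells and leaving out the cluster led by intestinal genes were chosen after seeing the data. With the 6 other clusterings or depth settings, 4 to 5 genes were highest in NSC-like cells, and Smad4 was highest in endothelial-like cells in 5 of them. Depth limits Gdf10, Bmpr1b and Id3 where they are low, and all values of Prom1/CD24.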

Other observations

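Id1 and Id3 were also read in choroid plexus-like cells (12 cells, nearly all from day-60 tdTomato), at 143 and 255 CPM, and Id4 in ependymal-like cells (10 cells) at 299 CPM, where Bmpr1b and Gdf10 were at 0, which allows up to 44.5 CPM. In the cluster led by intestinal genes (35 cells), Id2 stood at 1025 CPM, Id3 at 524, Id4 at 549, Bmpr1b at 148 and Gdf10 at 119 CPM, close to the levels of NSC-like cells. Its 11 GLAST/EGF cells held no Gdf10 transcript. NSC-like cells of the mixed day-60 sort (26 cells) held 112 CPM of Id3 and 172 CPM of Id4, against 468 and 381 CPM in NSC-like cells of day-60 tdTomato, a contrast that was not tested; 20 of the 26 belonged to the cluster led by Agt.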
